A study of Mus musculus with 12 samples.

Results

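Cytosolic ribosomal protein genes were followed in the hearts of knockout mice for Trp53cor1, the gene of lincRNA-p21. This noncoding RNA is transcribed next to Cdkn1a and induced by p53. The members were all protein-coding genes in the deposited table with a symbol beginning Rpl or Rps followed directly by a letter or number, leaving out the Rps6k kinases, Rps19bp1 and pseudogenes. Of 102 protein-coding symbols that begin this way, 17 were left out, so that 85 genes remained of 56350 rows. They comprised 49 genes of the large subunit, 33 of the small subunit and the 3 genes of the P stalk.

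The 4 groups, of 3 libraries each, were knockout TAC (lincRNA-p21 global knockout, transverse aortic constriction), control TAC (lincRNA-p21 heterozygous littermates, the same operation), knockout sham (lincRNA-p21 global knockout, sham surgery) and control sham (lincRNA-p21 heterozygous littermates, sham surgery). All were sampled 8 weeks after surgery, at the left ventricle apex, as polyadenylated RNA. Transverse aortic constriction narrows the aortic arch and loads the left ventricle with pressure. The deletion was global and not restricted to a heart cell type, the controls carried a single intact allele, and neither age nor sex is given in the labels. The labels number the libraries of a group as replicates without naming animals, and the tests therefore rest on the spread among these libraries.

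The cytosolic ribosome is built from a small subunit, which reads the mRNA, and a large subunit, which forms peptide bonds. Its proteins are encoded by highly expressed housekeeping genes with short transcripts, many of which start with a run of pyrimidines that ties their translation to mTOR signalling. Cardiac and skeletal muscle also express Rpl3l, a muscle-restricted paralog of the core protein Rpl3. Most ribosomal protein genes have many processed pseudogenes, which makes their reads hard to place.

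Values are normalised read counts, the reads of a gene divided by a size factor per library, and a value near 100 corresponds to about 100 reads. Libraries held 10323605 to 13238934 reads assigned to genes. Changes are differences of log2(value + 1) ± SE from limma-trend, a scale that understates the change of low genes, with Benjamini-Hochberg adjustment over 13916 genes tested. A gene was called at an adjusted p under 0.05. Of the 85 members, 77 passed the filter on low values (10 or more in 3 or more libraries). The knockout libraries held 0 reads of Trp53cor1 in 6 of 6, while control TAC libraries held 4, 0 and 3 reads and control sham libraries 2, 0 and 2, so the gene was barely detected in controls too. The labelled tissue was borne out by its markers, since the lowest value of any of 10 cardiomyocyte genes in any library was 8766. Control sham replicate 3 had the lowest mitochondrial share of reads (12.5%), and knockout TAC replicate 3 differed from the other knockout TAC libraries in the members described here, so counts are also given without these 2 libraries.

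The start sites show the feature for which this gene family is best known, a run of pyrimidines where the transcript begins. RefSeq windows for GRCm38.p6 matched 65 of the 85 members, with 77 annotated starts. A run of 8 or more bases that were each C or T, searched on the transcribed strand within 25 bases either side of the annotated start, was present in 34 of 77 member windows (44.2%) and in 6464 of all 32851 windows in the table (19.7%). Below are 30 bases around the start (15 before, 15 from it on), with runs of 8 or more C or T in capitals. The genes are those the results below turn on, and Rps21 and Rpl3l have a second annotated start that is not printed.
Rpl7a, chr2:26910792-26910821, plus strand: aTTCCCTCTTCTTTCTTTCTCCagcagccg
Rplp2, chr7:141447636-141447665, plus strand: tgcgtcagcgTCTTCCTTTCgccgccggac
Rps2, chr17:24720048-24720077, plus strand: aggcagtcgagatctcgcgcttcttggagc
Rpl23, chr11:97782425-97782454, minus strand: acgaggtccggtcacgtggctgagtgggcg
Rpl26, chr11:68901551-68901580, plus strand: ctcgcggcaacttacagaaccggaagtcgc
Rps21, chr2:180257364-180257393, plus strand: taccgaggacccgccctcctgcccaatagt
Rpl3l, chr17:24727811-24727840, plus strand: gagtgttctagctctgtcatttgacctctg
The run of 21 pyrimidines in Rpl7a and that of 10 in Rplp2 lie across the annotated start, while the longest run in the printed Rpl3l window is 5. Annotated starts can lie some bases from those used in heart, so a window without a run says only that these letters are not there.

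Levels of the members spanned a wide range, and the range ran with how far their sequence could be told from other genes. Per length, Rplp1 was highest, with a mean RPKM (reads divided by transcript length in kb and by library size in megareads) of 682, and Rps15 (465) and Rpl8 (424) were also among the highest. Near the other end stood Rps6, the small-subunit protein phosphorylated downstream of mTOR, with an RPKM of 0.325, or 1304-fold less than Rpl8. The reads of Rps6 were too few to test, and its values were 1.93, 7.76 and 2.18 in knockout TAC libraries, 4.33, 3.09 and 2.80 in control TAC libraries, 0, 2.74 and 0 in knockout sham libraries, and 3.20, 2.85 and 8.48 in control sham libraries. In no library did it reach 10.

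Each member's GENCODE M21 transcripts were divided into all words of 50 bases, and the words found in no transcript of another gene were counted. Over the 85 members the median share of such unique words was 64.1%. In Rps6 it was 15.4%, with 14 other genes sharing words, against 93.7% in Rpl8 and 100% in Rpl3l. The 50 bases of the Rps6 coding sequence found in most other genes, positions 471 to 520 counted from its start codon, occur in the transcripts of 13 other genes; they are shown as an example of a stretch where a read has no single source (Rps6, minus strand of chromosome 4, gene at 86854660 to 86857412).
Rps6: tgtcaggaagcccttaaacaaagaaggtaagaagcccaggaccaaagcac
Across the 85 members, the Spearman correlation of the unique share with the level per length was 0.41 with words of 50 bases and 0.52 with words of 100. This correlation is across genes that share libraries and it is given as a description. Members with at least 50% unique words (56 genes) had a median RPKM of 38.3, and those under 50% (29 genes) had 10.5. The part of read assignment in these levels was not tested, since how reads with several matches were handled is not given in the sources used here.

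**Figure D1:**
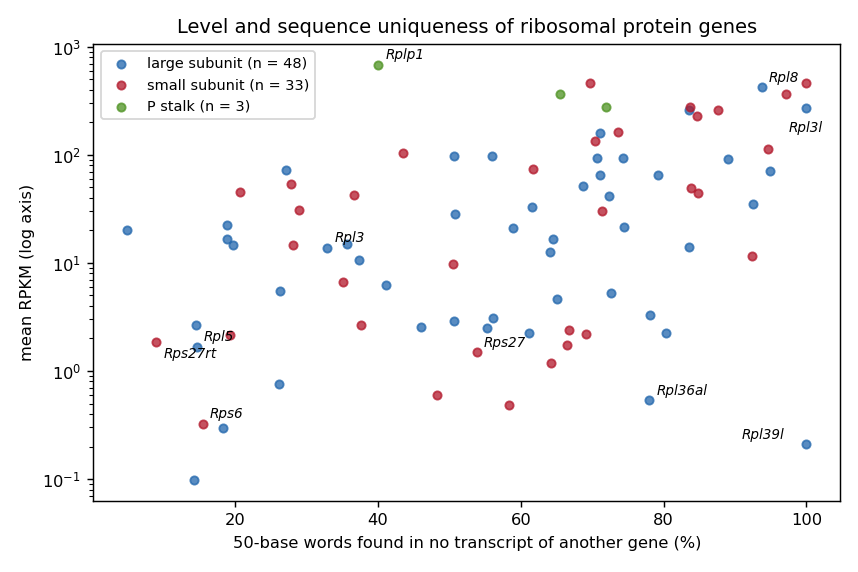
Mean level of each ribosomal protein gene over 12 libraries (RPKM, log axis) against the share of its 50-base words found in no transcript of another gene (percent). Points are genes coloured by subunit; Rpl10l, with 0 reads, is not drawn. Rps6, Rpl5 and Rps27rt lie low with under 20% unique words, and Rpl8 lies high with 93.7%.

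The 8 members not tested were Rpl10l, Rpl23a, Rpl24, Rpl36al, Rpl39l, Rps6, Rps23 and Rps29. Rpl10l, a testis-enriched retrogene copy of Rpl10, had 0 reads in every library although 92.4% of its words are unique, which allows up to 3 reads in a library. Rpl23a held 0 to 3 reads, Rpl24 0 to 6, Rps23 1 to 14 and Rps29 0 to 12. Rpl39l, another paralog with a known role in male germ cells, had values of 0.966, 9.98 and 0 in knockout TAC libraries, 0, 0 and 1.86 in control TAC libraries, 0, 2.74 and 0 in knockout sham libraries, and 2.13, 1.90 and 0.848 in control sham libraries. Rpl36al ran between 1.11 and 9.16 in all 12 libraries. These genes had too few reads to test at this depth.

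Members moved together from library to library. For the 52 members with a mean value of at least 100, the median deviation from each gene's own mean, on the log2 scale, was 0.22, 0.29 and −0.31 in knockout TAC libraries, −0.44, −0.28 and −0.20 in control TAC libraries, 0.31, 0.15 and 0.01 in knockout sham libraries, and −0.14, 0.20 and 0.30 in control sham libraries. The 3 control TAC libraries were low and lay below all control sham libraries. Among knockout TAC libraries, replicates 1 and 2 were high and replicate 3 was as low as the control TAC libraries. The members' summed reads made up 0.539%, 0.563% and 0.396% of all reads in knockout TAC libraries, 0.380%, 0.379% and 0.423% in control TAC libraries, 0.571%, 0.517% and 0.505% in knockout sham libraries, and 0.447%, 0.555% and 0.689% in control sham libraries. The mean share was 0.499 ± 0.0904% in knockout TAC, 0.394 ± 0.025% in control TAC, 0.531 ± 0.0352% in knockout sham and 0.564 ± 0.122% in control sham libraries (SD, n = 3 each). In bulk tissue, fewer cells of a type and less RNA per cell cannot be told apart.

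Transcript length moved with the same libraries. The Spearman correlation, across all genes tested, of a gene's deviation in a library with its transcript length was −0.21, −0.28 and 0.11 in knockout TAC libraries, 0.34, 0.27 and 0.25 in control TAC libraries, −0.26, −0.07 and −0.04 in knockout sham libraries, and 0.12, −0.26 and −0.20 in control sham libraries. Short genes were thus low in the 3 control TAC libraries, in knockout TAC replicate 3 and in control sham replicate 1, and these 5 libraries were also those in which the median deviation of the 52 members was below 0. Ribosomal protein transcripts are short, with a median of 711.5 bases in the members tested against 2145 bases in all genes tested. After a trend of length and GC content was removed from each library, the medians of the 52 members were 0.18, 0.24 and −0.29 in knockout TAC libraries, −0.29, −0.18 and −0.13 in control TAC libraries, 0.22, 0.10 and 0.00 in knockout sham libraries, and −0.07, 0.14 and 0.18 in control sham libraries. The 3 control TAC libraries and knockout TAC replicate 3 were still the lowest, with smaller deviations than before in the control TAC libraries. Why length moved with these libraries was not tested.

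**Figure D2:**
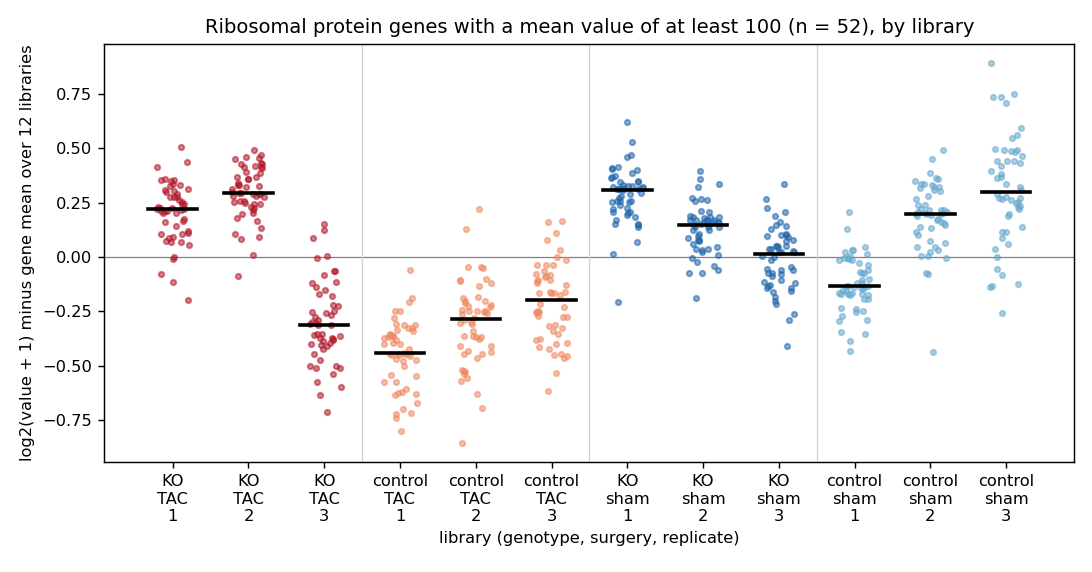
Deviation of log2(value + 1) from the gene's mean over 12 libraries (vertical axis, log2 units) in each library (horizontal axis, groups in colour). Points are the 52 ribosomal protein genes with a mean value of at least 100 and bars are medians, which are −0.44, −0.28 and −0.20 in the control TAC libraries and −0.31 in knockout TAC replicate 3.

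Constriction against sham in controls asked how pressure load changed the genes in animals with an intact lincRNA-p21 allele. Ribosomal protein genes were lower after TAC: 19 of 77 fell (24.7%), no member rose (0 of 77) and 58 failed the test. Of all genes tested 10.6% fell and 11.0% rose. The members' median difference was −0.39, against 0.01 over all genes, and 65 of the 77 lay below 0. All 3 control TAC libraries lay below all 3 control sham libraries in 32 members (41.6%, against 17.7% of all genes) and above them in 1, Rpl5 (1.3%, against 17.7%). At an unadjusted p under 0.05, 32 of the 77 members were lower and 0 higher. Of all genes tested, 35.5% passed at that threshold in either direction.

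The P stalk recruits elongation factors to the large subunit, and all 3 of its genes fell. Rplp0, its anchor, had values of 2856, 2639 and 2702 in control TAC libraries and 3612, 4140 and 4226 in control sham libraries, a difference of −0.54 ± 0.14 (adjusted p = 0.0125). Rplp1 had 3046, 2925 and 2856 in control TAC libraries against 3700, 4794 and 5205 in control sham libraries, a difference of −0.62 ± 0.17 (adjusted p = 0.0179). Rplp2 had 950.6, 963 and 1054 in control TAC libraries against 1232, 1785 and 2050 in control sham libraries, a difference of −0.74 ± 0.19 (adjusted p = 0.0119). In none of the 3 genes did the libraries of the groups overlap.

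In the large subunit 8 of 44 genes tested fell, with a median of −0.37 over the 44. The smallest adjusted p was that of Rpl3l, with values of 1905, 1944 and 2300 in control TAC libraries and 3628, 3629 and 4137 in control sham libraries, a difference of −0.89 ± 0.12 (adjusted p = 0.000339). Rpl26, which contacts the exit of the peptide tunnel and in human cells also binds MDM2 and the p53 mRNA, had 446.6, 338.9 and 423.3 in control TAC libraries against 612.6, 775.7 and 1023 in control sham libraries, a difference of −0.97 ± 0.22 (adjusted p = 0.00676). Rpl37a had 137, 139 and 148 in control TAC libraries against 182, 288.6 and 335.7 in control sham libraries, a difference of −0.88 ± 0.19 (adjusted p = 0.00465). In all 3 genes the control TAC libraries lay below the control sham libraries. Others that fell included Rpl6, Rpl37, Rpl8 and Rpl7a, with differences of −0.57 to −0.44. Rpl5, Rpl11 and Rpl23, which are among the members known to bind Mdm2, did not pass. Rpl5 was the highest member of the comparison, with 40.0, 35.0 and 44.8 in control TAC libraries against 28.8, 23.7 and 22.9 in control sham libraries (0.65 ± 0.32, adjusted p = 0.153). It was followed by Rpl10 (0.48) and Rpl21 (0.40), which did not pass either. Rpl11 had 20.5, 26.8 and 18.7 in control TAC libraries against 22.4, 16.1 and 27.1 in control sham libraries. Rpl23 had 550, 682 and 684 in control TAC libraries against 629, 772 and 681 in control sham libraries, so that the groups of both genes overlapped. Rpl5 and Rpl11 rest on few reads, and only 14.6% of the words of Rpl5 are unique.

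In the small subunit 8 of 30 genes tested fell, with a median of −0.39 over the 30. Rps21 had values of 428, 461.5 and 570.6 in control TAC libraries against 701, 902 and 1202 in control sham libraries, a difference of −0.92 ± 0.22 (adjusted p = 0.0105). Rps2, which lies near the mRNA entry of the small subunit, had 793, 947 and 909 in control TAC libraries against 1157, 1393 and 1541 in control sham libraries, a difference of −0.62 ± 0.14 (adjusted p = 0.00607). In both genes the groups did not overlap. Rps19, a gene mutated in human Diamond-Blackfan anaemia, had 207, 249 and 267 in control TAC libraries against 319, 356 and 453 in control sham libraries (−0.63 ± 0.18, adjusted p = 0.0228). Rps14, on the platform of the subunit, had 1383, 1314 and 1576 in control TAC libraries against 1751, 2381 and 2648 in control sham libraries (−0.65 ± 0.20, adjusted p = 0.0275). Rps15 fell by 0.70 and Rps20 by 0.66 on the log2 scale. By the median over annotated coding transcripts, Rps20 is the longest of the members tested (3706 bases). At that length its fall ran against the trend, in which long genes were higher after TAC. Which of its transcripts the reads came from was not tested. Rpl38, with the shortest transcripts (median 367.5 bases), was not called.

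The lowest estimate of any member, Rps27rt, came from few reads. Its coding sequence is identical to that of Rps27 over all 255 bases, and 8.92% of its words are unique. It had values of 3.24, 4.12 and 1.86 in control TAC libraries against 7.46, 12.3 and 24.6 in control sham libraries, a difference of −1.85 ± 0.63 (adjusted p = 0.0476), and it lost its call in 9 of 12 fits that left out a library (highest adjusted p = 0.181). Rps27 itself had 5.41, 5.15 and 7.46 in control TAC libraries against 5.33, 8.54 and 11.0 in control sham libraries. Rpsa, the laminin receptor and small-subunit protein, had 38.9, 37.1 and 37.3 in control TAC libraries against 37.3, 59.8 and 69.5 in control sham libraries (−0.50 ± 0.25, adjusted p = 0.163).

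The number of members that fell depended on single libraries and stood between 7 and 29 when each library was left out in turn. It was 8 without control TAC replicate 1, 7 without control TAC replicate 2, 8 without control sham replicate 2 and 7 without control sham replicate 3, and it was 29 without control sham replicate 1. Without control sham replicate 3 and knockout TAC replicate 3 together it was 21. The shares of all genes called in these fits are not given here, so these counts are not read as particular to the members. The call was kept in 6 genes, Rpl3l, Rpl26, Rpl37a, Rplp2, Rps2 and Rps21, whichever library was left out. Of these, Rpl3l, Rpl26 and Rps21 kept it under every alternative run.

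The counts differed by depth and by length. Among members with a mean value of at least 100, 18 of 52 fell (median −0.46), and among the others 1 of 25 did (median −0.08). Among other genes with transcripts under 1 kb and a mean value of at least 100, 28.8% of 1574 fell (median −0.26). Over other genes under 1 kb of any level 521 of 2599 fell, with a median of −0.21. Across all genes the difference in controls rose with transcript length (Spearman 0.32 across 13906 genes), and the median of the other genes was −0.25 under 0.6 kb, −0.22 from 0.8 to 1 kb, 0.05 from 2 to 3 kb and 0.53 over 8 kb. It also fell with GC content (Spearman −0.44), so the trend was not one of length alone. For TAC against sham in knockouts the correlation was −0.02 with length and −0.35 with GC content. Members lay below the median of the other genes in their own length bin in 53 of 77 cases, and the median distance was −0.18. With the longest annotated transcript as the measure of length, this distance was −0.11.

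After removal of the length and GC trend, 6 members fell and 0 rose, namely Rpl26, Rpl37, Rpl37a, Rpl3l, Rps20 and Rps21. Of all 13916 genes tested, 867 then fell and 756 rose, and of 2599 other genes under 1 kb 220 fell and 152 rose. The 6 calls are therefore not read as particular to the members. The members' median was −0.25 against −0.04 over all genes. The call of Rps20 in this fit rests on the length annotated for it. With the trend of length alone removed, 10 members fell. When the trend was fitted without the members, 8 fell. With the longest annotated transcript in place of the median, 6 fell and the median was −0.15. For these further fits the shares of all genes called are not given here. Their counts are likewise not read as particular to the members. Whether the length trend arose in the tissue or in the preparation of libraries was not tested.

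**Figure D3:**
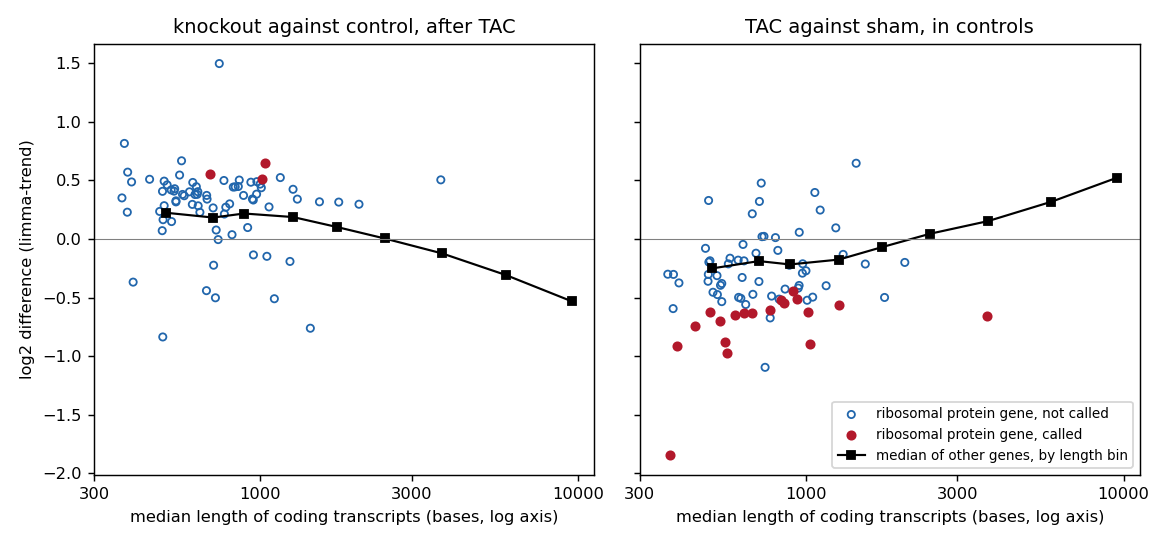
Difference of log2(value + 1) for 77 ribosomal protein genes (circles, filled where called) against the median length of their coding transcripts (bases, log axis), for knockout against control after TAC (left) and TAC against sham in controls (right). Squares are medians of the other genes by length bin, which run to −0.53 on the left and 0.53 on the right over 8 kb.

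Knockouts were set against controls after TAC to show how the pressure-loaded heart differed by genotype. Of 77 members 3 rose (3.9%) and 0 fell, close to the 4.1% of all genes that rose, while 4.13% of all genes fell. The 3 were Rpl3l, Rpl23 and Rps2. The members' median was 0.37, against 0.01 over all genes, and 66 of 77 lay above 0, including all 52 with a mean value of at least 100. Of these 52, 3 rose (5.77%, median 0.39). Among other genes under 1 kb with a mean value of at least 100, 14.9% of 1574 rose and 2.22% fell (median 0.24). All knockout TAC libraries lay above all control TAC libraries in 18 members (23.4%, against 15.6% of all genes) and below them in 0 (against 15.5%). At an unadjusted p under 0.05, 30 of the 77 members were higher and 1, Rpl5, lower. At that threshold 3477 of all 13916 genes tested passed in either direction.

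Rpl3l had values of 3124, 3161 and 3345 in knockout TAC libraries and 1905, 1944 and 2300 in control TAC libraries, a difference of 0.65 ± 0.12 (adjusted p = 0.00756). Unlike most members it was as high in knockout TAC replicate 3 as in the other knockout TAC libraries. Rpl23, an Mdm2-binding protein of the large subunit, had 1013, 964 and 830.0 in knockout TAC libraries against 550, 682 and 684 in control TAC libraries (0.55 ± 0.15, adjusted p = 0.0292). Rps2 had 1377, 1311 and 1096 in knockout TAC libraries against 793, 947 and 909 in control TAC libraries (0.51 ± 0.14, adjusted p = 0.0335). In all 3 genes every knockout TAC library lay above every control TAC library. Rpl3l kept its call under every alternative run, while Rpl23 lost it when any of 4 libraries was left out and Rps2 when any of 6 was.

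Among members with an adjusted p just above the threshold, Rplp0 had 4185, 4138 and 2990 in knockout TAC libraries against 2856, 2639 and 2702 in control TAC libraries (0.45 ± 0.14, adjusted p = 0.0566). Rpl8, a core protein at the peptidyl transferase centre, had 5404, 5610 and 3834 in knockout TAC libraries against 3338, 3528 and 3595 in control TAC libraries (0.49 ± 0.16, adjusted p = 0.0646). Rpl7 had 1417, 1421 and 1073 in knockout TAC libraries against 824, 945 and 1045 in control TAC libraries (0.47 ± 0.15, adjusted p = 0.0659). In each of these genes replicate 3 was the lowest of the knockout TAC libraries. Rpl26 had 676.9, 770.9 and 494.1 in knockout TAC libraries against 446.6, 338.9 and 423.3 in control TAC libraries (0.67 ± 0.22, adjusted p = 0.0702). Rpl19 had the highest estimate, from values of 7.73, 11.1 and 10.9 in knockout TAC libraries against 2.16, 5.15 and 1.86 in control TAC libraries (adjusted p = 0.0981). Low estimates included those of Rpl5 (−0.76) and Rps16 (−0.51), and neither passed.

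The count after TAC depended on single libraries, knockout TAC replicate 3 among them. Without this library 33 members rose and Rpl5 fell, and without it and control sham replicate 3 together 43 rose and Rpl5 again fell. Without control sham replicate 3 alone 11 rose. The count fell to 1, Rpl3l, without control TAC replicate 1 or 2, and likewise without knockout TAC replicate 1 or 2. Voom with weights for library quality called 43 members higher and 2 lower (Rpl5 and Rpl10), DESeq2 called 8 higher and edgeR 4 (Rpl3l, Rpl23, Rps2 and Rplp0). The shares of all genes called in these fits are not given here, so these counts are not read as particular to the members. Removal of the length and GC trend left 1 member called, Rpl3l, and a median of 0.22. Of all 13916 genes tested, 434 then rose and 349 fell. Members lay above the median of other genes of their length bin in 60 of 77 cases, with a median distance of 0.17 by the median transcript and 0.07 by the longest.

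**Figure D4:**
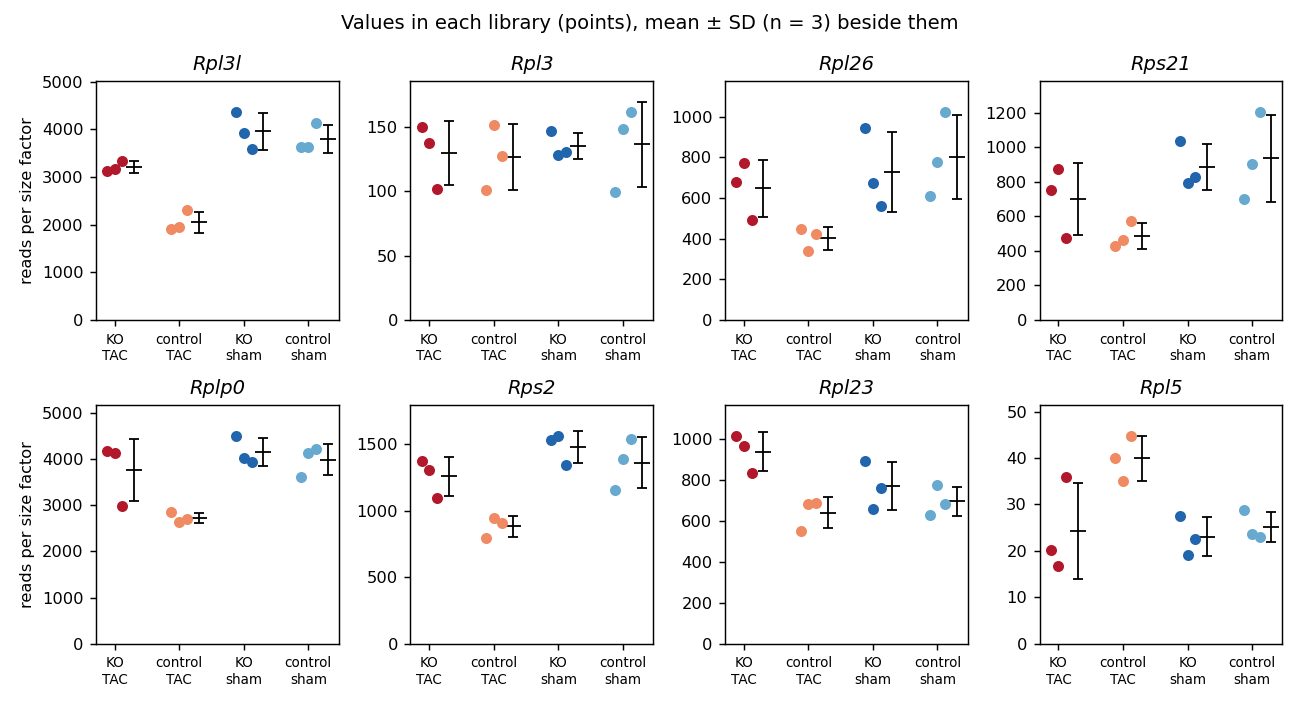
Normalised values (reads divided by the library's size factor, linear axis from 0) of 8 ribosomal protein genes in the 12 libraries, by group, with mean ± SD (n = 3) beside the points. Rpl3l lies between 3124 and 3345 in knockout TAC libraries and between 1905 and 2300 in control TAC libraries, whereas Rplp0 and Rps21 are low in knockout TAC replicate 3.

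Constriction against sham within knockouts called no member. Of 77 genes 0 rose and 0 fell by limma-trend, with 0.00719% of all genes rising and 0.0% falling. At an unadjusted p under 0.05, 2 members, Rpl3l and Rpl7a, were lower, while 6.68% of all genes passed in either direction. edgeR and DESeq2 called 0, and voom with quality weights called Rpl23 and Rpl36 higher and Rpl3l lower. The members' median was −0.07 against −0.01 over all genes. Knockout TAC libraries lay below knockout sham libraries without overlap in 3 members, Rpl3l, Rpl7a and Rpsa (3.9%, against 8.87% of all genes) and above them in 0 (against 8.31%). Rpl3l had 3124, 3161 and 3345 in knockout TAC libraries and 4359, 3931 and 3587 in knockout sham libraries, which do not overlap (−0.30 ± 0.12, adjusted p = 0.704). The highest estimates were those of Rpl36a (0.78), Rpl19 (0.71) and Rps13 (0.66), and the lowest those of Rpl17 (−0.69) and Rps27 (−0.59), all from genes with values under 50 in every library.

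The difference of these 2 effects, knockout minus control, was tested directly. No member was called by limma-trend (0 rose and 0 fell), against 0.0144% of all genes rising and 0.295% falling. The members' median was 0.39, and 70 of 77 lay above 0. At an unadjusted p under 0.05, 5 of the 77 members, Rpl3l, Rpl19, Rpl26, Rpl37a and Rplp1, were higher and 0 lower. Of all genes tested, 16.5% passed at that threshold in either direction. Rpl3l had a difference of 0.59 ± 0.18 (adjusted p = 0.126), and Rpl26 had 0.82 ± 0.31 (adjusted p = 0.211). edgeR called 0 members, DESeq2 1 (Rpl3l) with no adjusted p for 13, and voom with quality weights 15. Without control sham replicate 3 and knockout TAC replicate 3, 10 members rose. The shares of all genes called by these alternatives are not given here. The highest estimates, from few reads, were those of Rpl19 (1.81), Rps27rt (1.76) and Rpl36a (0.86), and low ones included those of Rpl5 (−0.64) and Rpl21 (−0.59), with none called. The calls in controls and their absence in knockouts are therefore not shown by limma-trend to differ for any member with all 12 libraries.

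**Figure D5:**
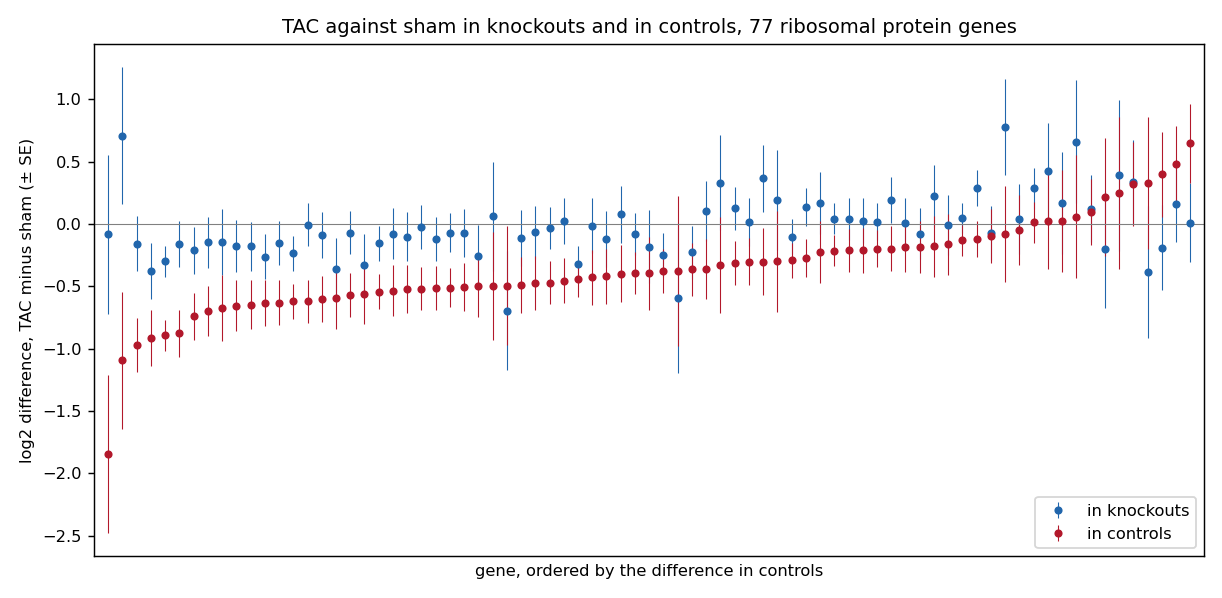
Difference of log2(value + 1) between TAC and sham (± SE) in knockouts and in controls for each of 77 ribosomal protein genes, ordered by the difference in controls. In controls 65 genes lie below 0 (median −0.39), and in knockouts 45 do (median −0.07).

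No member was called between knockouts and controls after sham surgery. limma-trend called 0 of 77 members in either direction, and 0.0% of all genes rose and 0.0% fell. At an unadjusted p under 0.05 a single member, Rpl21, was higher, 1 of 77, while 4.34% of all genes passed in either direction. By edgeR, DESeq2 and voom 0 members were called. The members' median was −0.02 against 0.03 over all genes. Knockout sham libraries lay below control sham libraries without overlap in 2 members, Rps12 and Rps13 (2.6%, against 4.68% of all genes) and above in 0 (against 4.94%). Rpl21 had the highest estimate, with 48.8, 28.3 and 30.8 in knockout sham libraries against 29.8, 12.3 and 17.8 in control sham libraries (0.86 ± 0.34, adjusted p = 0.934). It was followed by Rpl10a (0.29) and Rps3a1 (0.25). The lowest were Rps27rt (−0.95), Rps13 (−0.74) and Rps16 (−0.65).

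Rpl3l and its ubiquitous counterpart Rpl3 were set side by side. Their coding sequences are 73.1% identical over 1227 aligned positions, and the first 60 bases from the start codon are given because 13 differences in that stretch, in capitals, show where reads of the pair differ. Rpl3l lies on the plus strand of chromosome 17 (24727820 to 24736143) and Rpl3 on the minus strand of chromosome 15 (80077791 to 80091868), in GRCm38.
Rpl3l: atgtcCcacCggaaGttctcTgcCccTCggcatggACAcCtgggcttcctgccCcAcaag
Rpl3: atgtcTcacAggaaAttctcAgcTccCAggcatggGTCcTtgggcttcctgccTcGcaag
All words of Rpl3l are unique, while 32.9% of those of Rpl3 are, and 26 other genes share words with it. Rpl3 had values of 150, 138 and 101 in knockout TAC libraries, 101, 151 and 127 in control TAC libraries, 147, 128 and 130 in knockout sham libraries, and 99.1, 148 and 161 in control sham libraries. Its groups overlapped in every comparison, and its difference between TAC and sham in controls was −0.10 ± 0.21 (adjusted p = 0.783). Per length, Rpl3l exceeded Rpl3 by 20.2 ± 5.11 times in knockout TAC libraries, 13.1 ± 2.62 times in control TAC libraries, 23.2 ± 1.31 times in knockout sham libraries and 22.9 ± 5.28 times in control sham libraries (SD, n = 3 each). The ratio was 15.0, 10.1 and 14.3 in the control TAC libraries and 28.9, 19.4 and 20.3 in the control sham libraries, with no overlap, and no test was made of it. Per number of unique words in place of length, a measure added after the values were seen, the mean ratio was 8.78 in knockout TAC, 5.70 in control TAC, 10.1 in knockout sham and 9.92 in control sham libraries.

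Of the other paralog pairs, Rpl22 and Rpl22l1, Rps27l and Rps27, and Rpl7l1 and Rpl7 were not called by limma-trend in any comparison. For knockout against control after TAC, voom with quality weights called Rpl22, Rpl7l1 and Rpl7 higher, and DESeq2 called Rpl7 higher. Rpl22, an RNA-binding large-subunit protein, had 1965, 2099 and 1448 in knockout TAC libraries, 1389, 1458 and 1590 in control TAC libraries, 1875, 1781 and 1716 in knockout sham libraries, and 1435, 1896 and 1791 in control sham libraries. Its paralog Rpl22l1 had 47.3, 37.7 and 36.0 in knockout TAC libraries, 19.5, 31.9 and 41.0 in control TAC libraries, 36.6, 51.1 and 50.7 in knockout sham libraries, and 35.2, 46.5 and 36.5 in control sham libraries. Per length, the level of Rpl22l1 over that of Rpl22 averaged 0.0848 in knockout TAC, 0.0783 in control TAC, 0.0986 in knockout sham and 0.0880 in control sham libraries. Rps27l, a p53 target in human cells, had 302, 396 and 218 in knockout TAC libraries, 188, 272 and 282 in control TAC libraries, 337, 303 and 301 in knockout sham libraries, and 230, 327.5 and 281.5 in control sham libraries. Its groups overlapped in every comparison. Rpl7l1, a paralog of Rpl7, had 623, 638 and 537 in knockout TAC libraries and 473, 500 and 444 in control TAC libraries without overlap (0.34 ± 0.12, adjusted p = 0.0971), with 597, 606 and 533 in knockout sham libraries and 491, 567 and 494 in control sham libraries. Rpl7 had 1344, 1161 and 1034 in knockout sham libraries and 1035, 1304 and 1059 in control sham libraries.

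The X-linked members with autosomal paralogs, Rps4x, Rpl10, Rpl39 and Rpl36a, were not called by limma-trend in any comparison. Voom with quality weights called Rps4x lower in control TAC than in control sham libraries and higher in knockout TAC than in control TAC libraries. Rps4x had 718, 705 and 535.5 in knockout TAC libraries, 471.5, 479.0 and 541 in control TAC libraries, 753, 690 and 646 in knockout sham libraries, and 551, 697 and 583 in control sham libraries (TAC against sham in controls −0.29 ± 0.14, adjusted p = 0.154). Rpl10, which completes the maturation of the large subunit, had 33.8, 35.5 and 58.9 in knockout TAC libraries, 57.3, 75.2 and 47.5 in control TAC libraries, 37.6, 44.7 and 29.8 in knockout sham libraries, and 31.96, 37.0 and 62.7 in control sham libraries. Rpl39 ran between 60.6 and 138 and Rpl36a between 8.14 and 22.9 over all 12 libraries.

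Genes of neighbouring pathways were read beside the members, from lists chosen by name. Rack1, a scaffold of the small subunit outside the symbol rule, was not called by limma-trend in any comparison (adjusted p = 0.0855 for TAC against sham in controls) and had 6424, 6845 and 4112 in knockout TAC libraries, 4409, 4216 and 4348 in control TAC libraries, 6513, 5689 and 5237 in knockout sham libraries, and 5037, 6270 and 6114 in control sham libraries. Of 19 translation factors and related genes whose mRNAs start with pyrimidine runs, 3 fell in control TAC libraries (Eef1d at −0.65, Eif3f at −0.60 and Eif3k at −0.49), 0 rose and the median was 0.08. That is 15.8%, against 10.6% of all genes. After TAC, 2 of the 19 rose in knockouts (10.5%, against 4.1% of all genes), Eef1d (0.55) and Eif3f (0.53). Among members that fell in control TAC libraries and matched a RefSeq window, 2 of 13 had a pyrimidine run at the start, and among the other members tested 29 of 46 had one. No test was made of these shares.

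Of 48 ribosome biogenesis genes tested, which make and assemble the subunits in the nucleolus, 41 did not pass in control TAC libraries. In this list 5 rose (10.4%, against 11.0% of all genes) and 2 fell (4.17%, against 10.6%), with a median of 0.03. Among them were Rrp12 (0.91 ± 0.15, adjusted p = 0.000884), Utp20 (0.83) and Ddx21 (0.72), which rose, and Nop53, which fell by 0.59 on the log2 scale. Mitochondrial ribosomal protein genes had a median of −0.40 for TAC against sham in controls, near that of the cytosolic members, but 35 of 75 fell (46.7%) and 0 rose. After TAC 30 of these 75 rose in knockouts (40.0%) and 0 fell (median 0.46). For complex I of the respiratory chain, 37 of 45 fell in control TAC libraries (82.2%, median −0.77), and for the proteasome 7 of 37 did (18.9%, median −0.20). The median transcript length of those tested was 1134 bases for mitochondrial ribosomal proteins, 782 for complex I and 1239 for the proteasome, all below the 2145 bases over all genes.

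Markers of cell types moved in both of these comparisons. Of all genes tested, 10.6% fell and 11.0% rose for TAC against sham in controls. Between control TAC and control sham libraries, 5 of 7 mesothelial markers tested fell, and the summed value of all 8 ran from 66.2 to 196 in control TAC libraries and from 220 to 552 in control sham libraries. Of erythroid markers 3 of 5 tested fell, with sums of 2407 to 4129 in control TAC libraries and 6159 to 6736 in control sham libraries. Of 10 cardiomyocyte markers 5 fell and 1 rose. Of 10 fibroblast markers 3 rose and 1 fell. All 10 endothelial markers had estimates below 0 (median −0.44), and 1 fell. Of 8 pericyte and smooth muscle markers 2 fell (median −0.53). The summed value of 6 skeletal muscle markers, Acta1 among them, ran from 36753 to 50003 in control TAC libraries and from 1989 to 4144 in control sham libraries. Only 3 of these markers passed the filter on low values, with estimates from −0.13 to 4.11, and 1 of the 3 rose. Such a sum can be carried by a single gene, so it is not read as an amount of skeletal muscle. Of 10 macrophage markers and of 4 lymphocyte markers tested, 0 passed.

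Between knockout TAC and control TAC libraries, 6 of 10 cardiomyocyte markers rose and 1 fell (median 0.47), and 5 of 10 fibroblast markers fell and 0 rose (median −0.50). Of all genes tested, 4.1% rose and 4.13% fell. After removal of the length and GC trend the median was 0.31 for cardiomyocyte markers and −0.44 for fibroblast markers. Of mesothelial markers 2 of 7 tested rose (median 2.17), with sums of 205 to 421 in knockout TAC libraries and 66.2 to 196 in control TAC libraries. Of erythroid markers 2 of 5 tested rose (median 1.07), with sums of 3147 to 10442 in knockout TAC libraries and 2407 to 4129 in control TAC libraries. Of skeletal muscle markers 0 of 3 tested passed, with estimates from −1.22 to 0.10. Their sums, under the same limit, were 9400 to 25228 in knockout TAC libraries and 36753 to 50003 in control TAC libraries. All 10 endothelial markers had estimates above 0 (median 0.20), and 0 of the endothelial, macrophage, lymphocyte, and pericyte and smooth muscle markers passed. No marker of these lists was at 0 in all 12 libraries. The part of cell composition in the members' differences in either comparison was not tested.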

How the data were processed

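The deposited values are a signal: reads per gene that the authors divided by a size factor per library. The division was read from the values: all are whole multiples of a step per column (within 0.01), so reads were recovered for count tests used as alternatives. Reads were aligned with STAR to GRCm38.p6 and counted with featureCounts, per the submitters' processing notes, which also name SAMtools. No source used here gives versions, the annotation, the strand setting or the handling of reads with several matches; with strand unstated, overlapping genes cannot be told apart. Of 56350 gene IDs, 55480 matched GENCODE M21.

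limma-trend (limma 3.58.1, R 4.3.3, robust) modelled log2(value + 1) by 4 group means over 12 libraries and 5 contrasts. Genes entered the fit with 10 or more in 3 or more libraries. Length was the median of a gene's protein-coding transcripts, and trends were removed by loess (span 0.5). The fit was tested on simulated data. The members and lists were chosen with earlier results of these data known. Genes named with values were paralog pairs, stalk proteins, Rpsa, Rps6, Rps14, Rps19, the Mdm2-binding Rpl5, Rpl11, Rpl23 and Rpl26, the 3 highest and 3 lowest members of each comparison, the shortest and longest transcripts, and list genes with the smallest p; Rpl8, Rpl37a, Rps15, Rps20, other called members and genes at the ends of the levels joined them once values were known. Certain genes covered by this rule are not reported here. edgeR 4.0.16 and DESeq2 1.42.0 ran on recovered reads. Chi-square values per gene between libraries of a group lay between 5.55 and 59.1, above counting noise. They do not show that the libraries come from different animals. Each library was kept as a replicate, as labelled. Intervals of counting error were not used beyond the limit of 3 reads that a count of 0 allows. Figures and tables used Python 3.11.15 with pandas 2.3.3, scipy 1.17.1, matplotlib 3.10.9 and Biopython 1.88.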

Additional observations from a re-analysis of the deposited data

How the results depend on the processing

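For TAC against sham in controls, 19 members fell. Fewer fell with the length and GC trend removed (6), length alone removed (10), the trend fitted without the members (8), the longest transcript used (6, with a median of −0.15) and the replicate block with the length and GC trend removed (7). Leaving out a library gave 7 to 29. For knockout against control after TAC, 3 members rose. Under alternatives the members called in either direction numbered 8 by DESeq2 (all higher), 45 by voom with quality weights (43 higher, 2 lower), 6 with the 6 libraries of the comparison alone (all higher) and 44 without control sham replicate 3 and knockout TAC replicate 3, added after seeing the data (43 higher, 1 lower). Scaling to all reads gave 1, as did each removal of a trend, with or without the block. Leaving out a library gave 1 to 34 called, of which 1 to 33 were higher. For TAC against sham in knockouts, voom called 3 (2 higher, 1 lower). For the difference of the TAC effects, DESeq2 called 1, voom 15 and the fit without both libraries 10. Leaving out a library gave 0 to 1, and the median with the longest transcript was 0.16. The cause of these differences was not tested. For most of these alternatives the share of all genes called is not given, so the counts are not read as particular to the members. Counts of calls under the other scalings, pseudocounts and filters stayed within 1.5 times of these, and no result reversed.

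Same-numbered libraries of different groups correlated between −0.072 and 0.249 in their deviations (median 0.028 over 18 pairs). The highest value was that of control sham 3 with knockout TAC 3. Deviations from a mean of 3 libraries depend on each other, so these values cannot show whether same-numbered libraries were paired. With the replicate block 17 members fell for TAC against sham in controls and 3 were called for knockout against control after TAC, with 0 in the other comparisons.

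Of reads outside mitochondrial genes the members made up 0.622% ± 0.111 in knockout TAC, 0.470% ± 0.0347 in control TAC, 0.632% ± 0.0485 in knockout sham and 0.667% ± 0.119 in control sham libraries (SD, n = 3 each). With the longest transcripts, Rpl3l exceeded Rpl3 by 34.96 times in knockout TAC, 22.7 in control TAC, 40.1 in knockout sham and 39.5 in control sham libraries, and per unique words by 8.78 in knockout TAC, 5.70 in control TAC, 10.1 in knockout sham and 9.92 in control sham libraries. Members with under 50% unique words may hold reads of other genes or lack their own. With at least 50% unique words, 14 of 52 fell in controls, and with under 50% 5 of 25 did, against 10.6% of all genes. After removal of the length and GC trend, 6 of the 52 and 0 of the 25 fell.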
